A study of Caenorhabditis elegans with 2 samples.

Results

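The genes described here encode the secreted peptide signals of Caenorhabditis elegans, namely the FMRFamide-like peptides (flp), the neuropeptide-like proteins (nlp) and the insulin-like peptides (ins), together with pdf-1, ntc-1, snet-1 and daf-28. Members were every protein-coding gene of Ensembl release 115 whose symbol is flp, nlp or ins followed by a number, plus those 4 genes. This gave 144 of 19973 protein-coding genes: 31 flp, 71 nlp, 38 ins and the 4 singles. The rule uses gene symbols alone, and no member was filtered out.

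Their chromatin was examined by ChIP-seq for CEH-63, a homeodomain transcription factor known from the DVC interneuron. Both samples were biological replicates of 1 group, strain OP742, made of whole L1 larvae aged 6 hours that had been starved after bleaching, with males and females pooled. The animals carried the transgene wgIs742, a C02F12.10 (ceh-63) copy tagged with TY1, EGFP and 3xFLAG together with unc-119(+), in an unc-119(tm4063) background. The series has 1 line and no second condition, and the control library was not analysed here. In whole animals, few cells carrying the protein and weak occupancy in each cell cannot be told apart.

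Neuropeptides are cut from larger precursors by convertases, packed into dense-core vesicles and released to act on G protein-coupled receptors. The insulin-like peptides act on a single receptor, DAF-2, where some members activate it and others oppose it, and in starved first-stage larvae this pathway is known for its part in developmental arrest. A homeodomain protein typically contacts short AT-rich DNA, with TAATTA as a common core.

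The deposited lists held 30000 peaks in each replicate and in the pooled list, while the reproducible list was far shorter, made with an irreproducible discovery rate threshold. Peaks were ranked within a list by their signal, rank 1 being the strongest, and signal was never set across lists. Only 194 pooled peaks had a q of 0.05 or less, so a peak of low rank is weak evidence of any enrichment. The tagged gene itself had rank 2 in the pooled list and in both replicates (X, 3673599 to 3673968). The read depth is unknown. No test was run on the members, and the intervals given are 95% Wilson intervals, which cover the counting of genes only, as neighbouring genes are not independent.

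The sequences under 4 of the best-ranked member peaks are given first so that the letters at the summits can be seen. The peaks of nlp-4 (rank 18, the strongest), nlp-40 (rank 1826) and flp-14 (rank 1912) also rank above that of flp-18, but their sequences are not shown. They were taken from the RefSeq WBcel235 genome, plus strand, 5′ to 3′, with TAATTA in capitals. They are the windows at the ins-39 peak (chrX:1344917-1345215), the single reproducible peak assigned to a member alone, at the next strongest, nlp-82 (chrII:9255131-9255281), at nlp-18 (chrII:11030556-11030706) and at flp-18 (chrX:3018666-3018816).
ins-39: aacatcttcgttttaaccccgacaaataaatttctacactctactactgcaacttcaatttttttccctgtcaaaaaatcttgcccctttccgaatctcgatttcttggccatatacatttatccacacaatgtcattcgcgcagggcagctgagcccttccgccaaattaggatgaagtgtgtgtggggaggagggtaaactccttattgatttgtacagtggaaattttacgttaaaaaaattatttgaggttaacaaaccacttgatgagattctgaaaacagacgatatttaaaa
nlp-82: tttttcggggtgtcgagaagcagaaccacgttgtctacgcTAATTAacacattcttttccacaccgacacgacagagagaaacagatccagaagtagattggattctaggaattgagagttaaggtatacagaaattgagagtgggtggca
nlp-18: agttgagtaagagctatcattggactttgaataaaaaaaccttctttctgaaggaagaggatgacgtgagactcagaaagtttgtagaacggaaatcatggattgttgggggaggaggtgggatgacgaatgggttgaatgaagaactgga
flp-18: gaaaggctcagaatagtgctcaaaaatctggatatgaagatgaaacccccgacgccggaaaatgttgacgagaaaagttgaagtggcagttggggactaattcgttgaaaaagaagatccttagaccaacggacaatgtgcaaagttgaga
The window of 299 bp at ins-39 and those of 151 bp at nlp-18 and flp-18 held no TAATTA, while that at nlp-82 held 1. TAATTA reads the same on both strands. Of all pooled peaks, 11.3% held it in a window of 299 bp and 5.74% in one of 151 bp. AT content was 62.2% at ins-39, 57% at nlp-82, 58.3% at nlp-18 and 57% at flp-18. These matches describe the letters and show no binding.

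Reproducible peaks lay within 1000 bp of a start at 2 of the 144 genes, nlp-4 and ins-39 (1.39%, interval 0.382 to 4.92). Over all protein-coding genes the share was 1.66% (331 of 19973), so the members were near the background. By family the counts were 1 of 71 nlp genes, 1 of 38 ins genes and 0 of 31 flp genes. A count of 0 of 31 allows a share of up to 9.68%, taken as 3 counts of the total (the Wilson upper limit is 11%), so at this list length a flp share equal to the background was not distinguishable from none.

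The strongest peak belonged to nlp-4, which encodes a neuropeptide-like precursor. It ranked 18 in the pooled list, 7 in replicate 1 and 33 in replicate 2, and lay on chromosome I at 10517036 to 10517405. Both replicates therefore placed it among their strongest peaks. The summit (10517221) was intergenic and 834 bp downstream of the nlp-4 start, past the 3′ end of the gene (10517321, minus strand). It was closer to the starts of the snoRNA gene F59C6.15 (71 bp), the non-coding gene F59C6.19 (271 bp) and the protein-coding gene F59C6.18 (793 bp). With each peak given only to its nearest start, nlp-4 was no longer among the genes with a reproducible peak, and 1 member was left, ins-39.

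The insulin-like gene ins-39, on X, had the other reproducible peak. It ranked 41 in the pooled list, 67 in replicate 1 and 40 in replicate 2. Both replicate summits lay within 5 bp of the pooled one. The peak (X, 1344881 to 1345250) was intergenic, 645 bp upstream of the ins-39 start, and no other gene had a start within 1000 bp of its summit. Its −log10 q was 1.58, the same value as for the nlp-4 peak. These were the only members whose best pooled peak had a q of 0.05 or less, and both were also the only members among as many of the strongest peaks of each replicate as the reproducible list holds.

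The third in order, nlp-82, was well below these. Its peak (II, 9255021 to 9255390) lay 919 bp upstream of the start with no other start nearby, and had rank 587 in the pooled list, 855 in replicate 1 and 1116 in replicate 2. The replicates were close in rank, but the −log10 q was 0.33. Every other member had a −log10 q between 0.0307 and 0.12. Among the 88 genes with a pooled peak, the drop from these 3 genes to the next, nlp-18 at rank 1812, was thus wide.

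Reading the pooled list further down, 9 members (6.25%, interval 3.32 to 11.5) had a peak within rank 3000, against 7.95% of all protein-coding genes. Apart from the 3 genes above, these were 3 nlp and 3 flp genes. The peak of nlp-18, whose peptides act on a cholecystokinin-type receptor, had rank 1812 (5135 in replicate 1 and 3257 in replicate 2). It lay 234 bp upstream of the start, at the start of the non-coding gene F33A8.12. That of nlp-40, the intestinal peptide that times the defecation cycle, had rank 1826 and lay 38 bp into the gene, in its 5′ UTR. The nlp-40 peak ranked 1538 in replicate 1 and 9609 in replicate 2, so the replicates differed widely. The peak of nlp-1, a peptide of the AWC olfactory neuron, had rank 2618 and was 971 bp upstream, with 3424 and 4179 in the replicates.

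The best placed flp genes were flp-14, flp-18 and flp-19. The flp-14 peak, 70 bp downstream of the start in a coding exon, had rank 1912. The best ranks of flp-14 were 1801 in replicate 1 and 2440 in replicate 2, yet replicate 1 had no summit within 200 bp of the pooled one, and its own best peak was 319 bp downstream of the start. The flp-18 gene, whose peptides are ligands of the receptor NPR-1, had its best peak 186 bp upstream at rank 2314, with 4114 and 2981 in the replicates. At flp-19 the peak was 477 bp upstream at rank 2462. Here the replicates stood apart, with rank 10680 in replicate 1 and 1004 in replicate 2. Within rank 3000 of both replicates there were 4 members: nlp-4, ins-39, nlp-82 and flp-14. No share over all genes is given for this count, so it cannot be called high or low. Within rank 3000 of replicate 1 lay 6.94% of members, beside 8.38% of all protein-coding genes. In replicate 2 it was 6.94%, beside 7.77%.

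The remaining genes among the 15 best ranked lay between ranks 3248 and 4115. They were ins-28 (rank 3248, 902 bp downstream), nlp-76 (rank 3322, 585 bp upstream), nlp-15 (rank 3590, 335 bp downstream), flp-1 (rank 3810, 422 bp downstream, in an intron), pdf-1 (rank 3974) and nlp-61 (rank 4115, 61 bp downstream). Best ranks in replicates 1 and 2 were 14649 and 2796 for ins-28, and 6887 and 8938 for nlp-76. For nlp-15 they were 2407 and 12365, and for nlp-61 10594 and 4630. The nlp-76 summit was also 740 bp from the start of a tRNA gene and 835 bp from that of the non-coding gene C02B4.8. The flp-1 peptides are known for modulating locomotion. The flp-1 peak ranked 3516 in replicate 1 and 8875 in replicate 2, with summits at the same base as the pooled one.

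**Figure D1:**
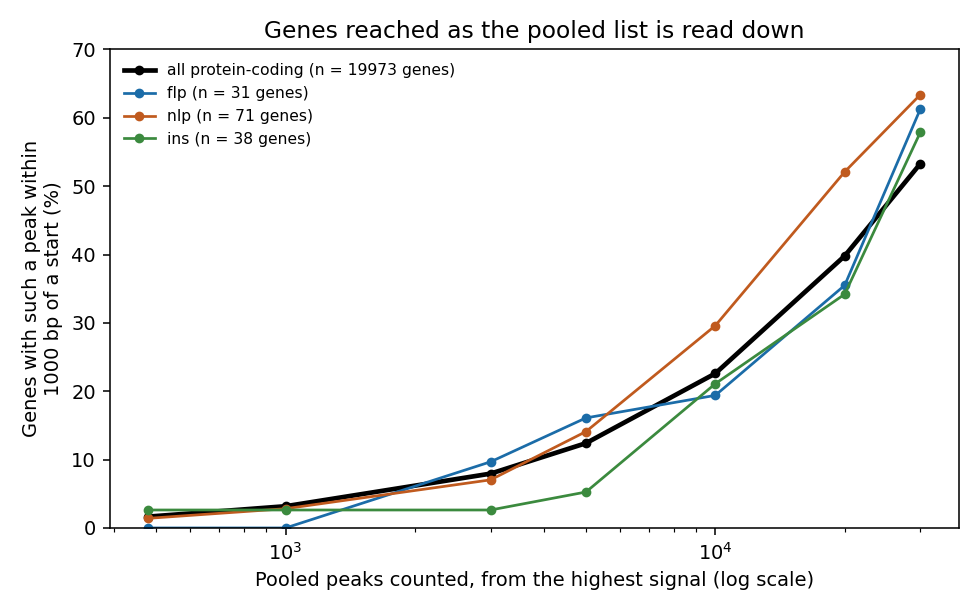
Share of genes (y axis, %) with a pooled peak within 1000 bp of a start, against the number of strongest pooled peaks counted (x axis, log scale), for all 19973 protein-coding genes and for the flp, nlp and ins families. The families stay near the black line of all genes, with ins below it at 3000 peaks (2.63% against 7.95%) and nlp above it at 10000 (29.6% against 22.6%).

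The whole pooled list gave peaks near 88 of the 144 genes (61.1%, interval 53 to 68.7), against 53.3% of all protein-coding genes. In replicate 1 the count was 77 (53.5%), against 53.4%, and in replicate 2 it was 90 (62.5%), against 53.0%. The excess seen in the pooled list was therefore present in replicate 2 and not in replicate 1. The median best rank of the members with a pooled peak was 13204, beside 12238 for all genes, and these peaks were 86 separate ones.

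The share of genes with a pooled peak was 61.3% of flp genes (19 of 31, interval 43.8 to 76.3), 63.4% of nlp genes (45 of 71, interval 51.8 to 73.6) and 57.9% of ins genes (22 of 38, interval 42.2 to 72.1). These intervals overlap throughout. For ins genes the share was 39.5% in replicate 1 and 50% in replicate 2, for nlp genes 59.2% and 71.8%, and for flp genes 58.1% and 54.8%. The nlp family was highest in both, and ins lowest in both.

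Median best ranks gave no stable order of families. In the pooled list they were 10897 for nlp, 13962.5 for ins and 17358 for flp. In replicate 1 the nlp median was 8704 and the ins median 19855, while in replicate 2 the ins median was 8301 and the nlp median 11659. The ins family thus had the weakest median of the 3 families in replicate 1 and the strongest in replicate 2. The flp medians were 15544.5 and 11812.

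**Figure D2:**
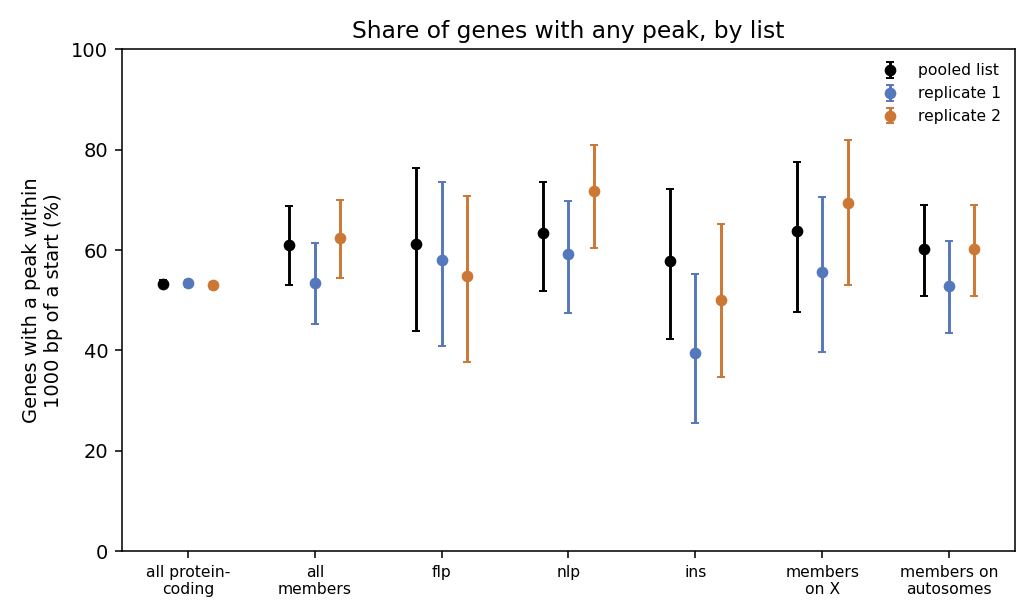
Share of genes with any peak within 1000 bp of a start (y axis, %) in the pooled list and in each replicate, for all protein-coding genes, all members, the 3 families, and members on X and on autosomes. Points are shares and bars 95% Wilson intervals; in replicate 2 the intervals of all members (54.4 to 70), of nlp (60.5 to 81) and of members on X (53.1 to 82) lie above the 53.0% of all protein-coding genes, and every other interval of a member group includes the value of all protein-coding genes in the same list.

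Both replicates had a peak near 56 of the 144 genes (38.9%, interval 31.3 to 47), against 36.3% of all protein-coding genes. A peak in replicate 1 alone was found at 21 genes (14.6%, beside 17% of all protein-coding genes) and in replicate 2 alone at 34 (23.6%, beside 16.7%). By family, both replicates had one at 34 of 71 nlp genes (47.9%, interval 36.7 to 59.3), 11 of 31 flp genes (35.5%) and 9 of 38 ins genes (23.7%, interval 13 to 39.2). Of the 88 best pooled peaks, 41 (46.6%) had a summit within 200 bp in each replicate, beside 49.9% for all genes with a pooled peak. For 3 members (3.41%) neither replicate had such a summit, beside 4.13% of all protein-coding genes with a pooled peak.

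No list had a peak near 30 of the 144 genes (20.8%), against 28.6% of all protein-coding genes. These were 7 flp, 11 nlp and 11 ins genes and daf-28. Among them were ins-1, which is known to oppose DAF-2 signalling, and ins-4, a DAF-2 agonist. A missing peak means that none entered the deposited lists.

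**Figure D3:**
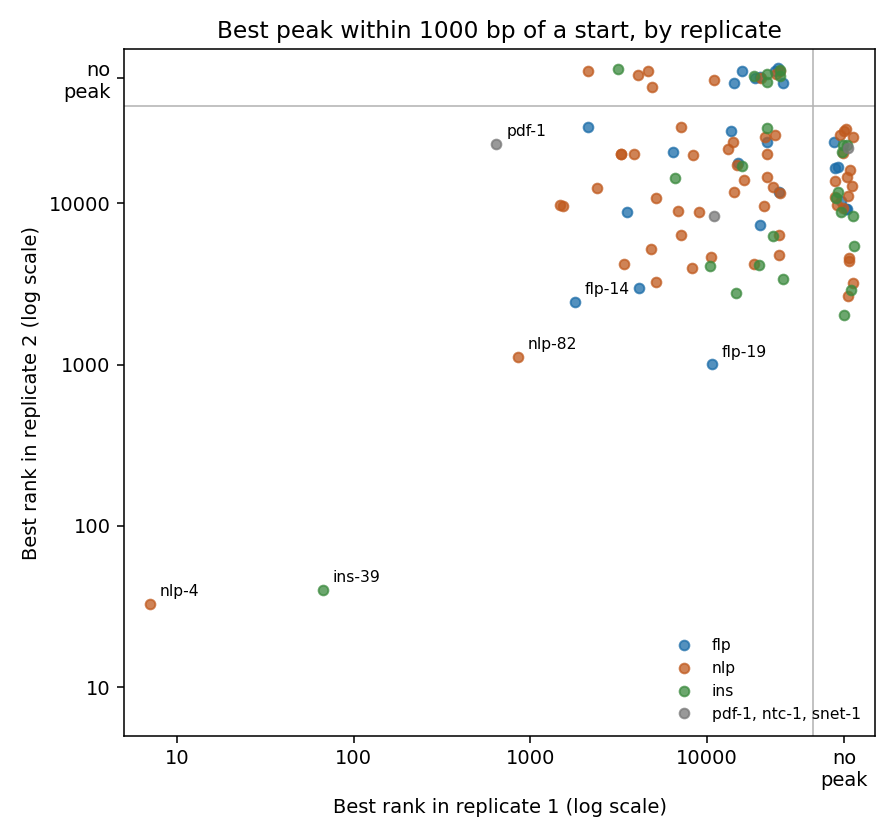
Best rank of each gene within 1000 bp of a start in replicate 1 (x axis) and replicate 2 (y axis), both log scales, coloured by family; genes with a peak in 1 replicate sit in the outer strips, spread for visibility, and genes with none in either are left out. Only nlp-4 and ins-39 lie in the lower left corner, and pdf-1 and flp-19 show ranks that differ widely between the replicates.

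The 4 genes outside the numbered families were unlike each other. The pigment-dispersing factor gene pdf-1, on III, had a pooled peak of rank 3974 in an intron, 574 bp downstream of a start. That site ranked 644 in replicate 1 and 23336 in replicate 2, so the replicates stood far apart. The nematocin gene ntc-1, which encodes the worm's oxytocin and vasopressin relative, had a peak of rank 8173 in a coding exon 103 bp downstream, with ranks 10963 and 8359. Near daf-28, an insulin-like gene whose product promotes reproductive growth over dauer arrest, no list had a peak, and the nearest pooled summit was 4453 bp from its start.

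The fourth, snet-1, which acts in pheromone-dependent olfactory plasticity, is a neighbour of ceh-63 on X, with the 5′ ends of the 2 genes 5116 bp apart and their nearest annotated starts 3576 bp apart. It had no pooled peak within 1000 bp. The nearest pooled summit was 1207 bp away (rank 12698), and replicate 2 alone had a peak within the limit, at rank 21905. The nearest reproducible peak was 3050 bp away at rank 253 (X, 3671807 to 3672176), closest to the start of C02F12.5 at 106 bp and also within 1000 bp of a start of ceh-63 (526 bp). As the transgene carries ceh-63, signal from the transgene and from the native locus cannot be told apart at these sites. No other member lay within 20 kb of ceh-63.

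The insulin-like genes are grouped in the genome, and their clusters carried weak peaks. With neighbouring starts at most 10000 bp apart, 24 of the 39 insulin-like genes (38 ins and daf-28) formed 7 clusters, and the other 15 stood alone. A pooled peak was near 13 of the 24 clustered genes (54.2%, interval 35.1 to 72.1) and near 9 of the 15 others (60%, interval 35.7 to 80.2). Over all protein-coding genes the share was 53.3%, which both intervals include. In replicate 1 the counts were 11 of 24 (45.8%) and 4 of 15 (26.7%), beside 53.4% of all protein-coding genes. In replicate 2 they were 10 of 24 (41.7%) and 9 of 15 (60%), beside 53.0%. Which group had the larger share therefore depended on the replicate. No clustered gene had a reproducible peak.

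The largest cluster was on chromosome I, with 7 genes over 24148 bp (14013629 to 14037777). Of these, 5 had a pooled peak, each its own: ins-28 at rank 3248, ins-27 at 7238, ins-29 at 7262, ins-26 at 23064 and ins-25 at 29806. The other genes of the cluster, ins-24 and ins-30, had none. Replicate 1 had peaks near 6 of the 7 genes, the best at rank 10472, and replicate 2 near 3, the best at rank 2796. The 2 replicates thus differed in the genes they reached and in strength.

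On II, the cluster of ins-2 to ins-6 covered 11912 bp. It includes ins-6, which acts with daf-28 to promote dauer exit and reproductive growth. Of its 5 genes, ins-6 (rank 15266, 915 bp upstream) and ins-3 (rank 26504, at the start) had a pooled peak. Replicate 1 had none near any of the 5 genes and replicate 2 had peaks near 2. In another pair on II, ins-15 (rank 27014) and ins-14 (rank 26235) each had a weak peak, the first of them nearer to the ins-14 start. The pair ins-19 and ins-31 had no pooled peak. On III, ins-23 alone of 3 clustered genes had one (rank 25274). On IV, ins-7, an agonist of DAF-2 known from the intestine, had one at rank 10202 (3146 in replicate 1 and none in replicate 2), and its neighbour ins-8 had none.

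Another cluster on II, with ins-13, ins-12 and ins-11 over 11867 bp, lies beside strong peaks of another gene type. The pooled peak of ins-13 had rank 6181, 969 bp downstream of its start (5543710 to 5544079). It overlaps the reproducible peak of rank 26 (5543511 to 5543880), whose summit was 1168 bp from the ins-13 start, just beyond the limit. That peak lay 98 bp from the start of sls-2.2, a gene for the SL2 spliced leader RNA, and 2 bp from the non-coding gene C17C3.23. Measured from the edge of the peak, ins-13 came within 1000 bp of it. Neither replicate had a summit within 1000 bp of the ins-13 start. The replicate summits matched to its pooled peak, 200 and 110 bp away, had ranks 33 and 23 and lay beyond that limit. The peak of ins-11 had rank 11451 (6621 in replicate 1), and ins-12 had none.

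**Figure D4:**
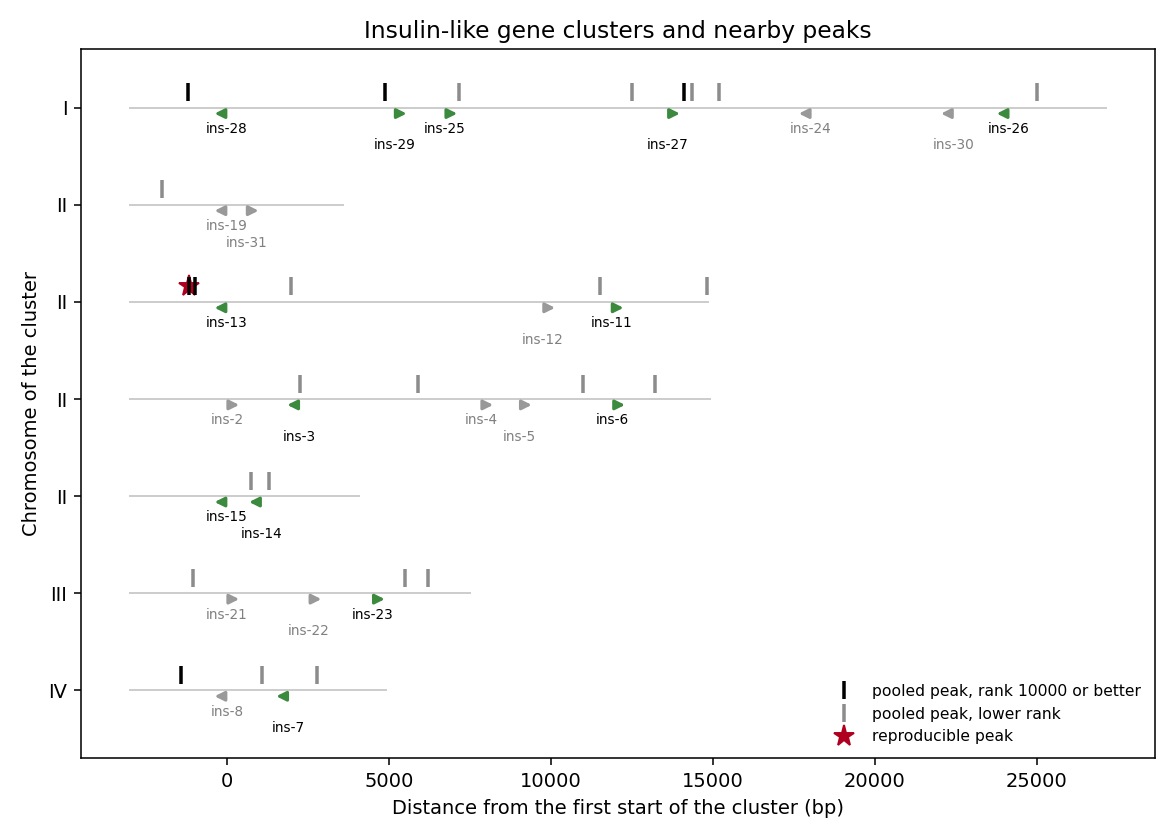
The 7 insulin-like gene clusters, 1 per line, drawn from their first start (x axis, bp). Arrows begin at gene starts and point along transcription, green with a pooled peak within 1000 bp and grey without. Ticks mark summits of pooled peaks (black for rank 10000 or better). The single reproducible peak in view, the star at ins-13, has rank 26 and lies 1168 bp from that start.

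At the limit of 1000 bp, the members just inside in the pooled list were ins-13 (969 bp), nlp-1 (971 bp) and ins-23 (993 bp), and those just outside were nlp-52 (1009 bp), ins-10 (1027 bp) and ins-21 (1042 bp). For reproducible peaks, nlp-4 (834 bp) and ins-39 (645 bp) were inside, and the nearest outside were ins-13 (1168 bp), flp-24 (1506 bp) and ins-17 (1929 bp). The peak near ins-17 was of rank 46 and lay 275 bp from the start of the ribosomal protein gene rps-1. The one near flp-24 (rank 296) had no start within 1000 bp.

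On X, 23 of 36 members had a pooled peak (63.9%, interval 47.6 to 77.5), and on the autosomes 65 members did (60.2%, interval 50.8 to 68.9). Over all protein-coding genes the shares were 52.4% on X and 53.5% on the autosomes. The intervals of the members overlap. X held 13 of the 31 flp genes and 19 of the 71 nlp genes but 2 of the 38 ins genes, ins-39 and ins-9. Within families the X and autosome shares were 61.5% and 61.1% for flp and 63.2% and 63.5% for nlp. Reproducible peaks fell 1 on X and 1 on an autosome.

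Most member peaks were not shared with another gene. The summit lay within 1000 bp of a start of another gene for 28 of 88 members (31.8%, interval 23 to 42.1), beside 41.5% of all protein-coding genes with a pooled peak. Counting other protein-coding genes only, it was 11 of 88 (12.5%, interval 7.13 to 21), beside 28.2%. The members' own surroundings differed in the same direction without any peak: 17 of the 144 (11.8%) had another protein-coding start within 1000 bp of their own, beside 25.5% of all genes. None of the 31 flp genes had one. For 14 members (15.9%) another start was closer to the summit than their own, beside 22.2%.

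A best peak was common to a pair of members in 2 cases. The first was on V (3978973 to 3979342, rank 7442), 24 bp upstream of nlp-34 and 897 bp upstream of nlp-31, both of a group of epidermal peptide genes known for antimicrobial defence. It ranked 3260 in replicate 1 and 20214 in replicate 2. The other was on X (2342449 to 2342818, rank 12827), in a coding exon 325 bp downstream of the nlp-23 start and 545 bp upstream of that of nlp-22, a gene known for its part in larval sleep. Replicate 2 had a matching peak at rank 6344, and replicate 1 had none within 200 bp. The peak of nlp-2 (rank 19702) also came within 1000 bp of nlp-23, and that of ins-15 within reach of ins-14.

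Summits fell on either side of the start. Of the 88, 40 were upstream (45.5%, interval 35.5 to 55.8), beside 48.2% of all genes with a pooled peak. The median distance was 412 bp, beside 450 bp, and by family it was 186 bp for flp, 416 bp for nlp and 528 bp for ins. Within 250 bp of the start lay 10 of 19 flp summits, 16 of 45 nlp summits and 3 of 22 ins summits. These shares were 52.6% (interval 31.7 to 72.7), 35.6% (interval 23.2 to 50.2) and 13.6% (interval 4.75 to 33.3), beside 29.7% of all protein-coding genes with a pooled peak. By feature, 36 summits were intergenic (40.9%, beside 28.5% of all genes with a pooled peak), 21 were in introns (23.9%, beside 24.8%) and 17 in coding exons (19.3%, interval 12.4 to 28.8, beside 38.2%). In 3′ UTRs there were 8 (9.09%, interval 4.68 to 16.9, beside 2.68%) and in 5′ UTRs 3 (3.41%, beside 3.45%). The members were not matched to all genes by gene length, and its effect on these feature shares was not tested.

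**Figure D5:**
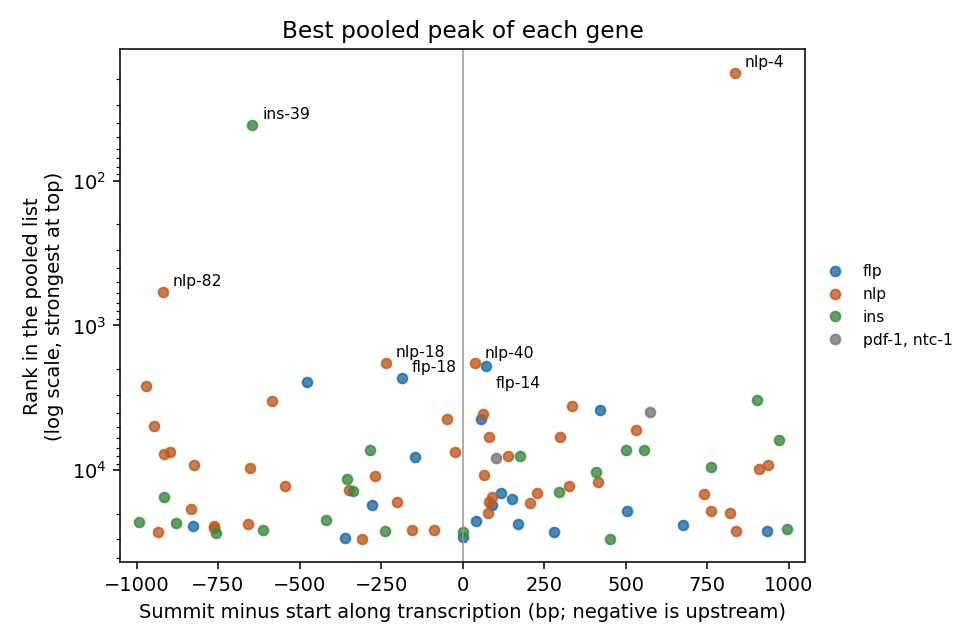
Position of the best pooled peak of each of the 88 genes relative to its nearest annotated start (x axis, bp along transcription, negative upstream) against its rank (y axis, log scale, strongest at the top), coloured by family. Points spread over the whole window, and nlp-4, ins-39 and nlp-82 stand above the rest, all more than 500 bp from the start.

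TAATTA occurred within 50 bp of the summit for 4 of the 88 genes (4.55%, interval 1.78 to 11.1), nlp-82, nlp-62, nlp-36 and flp-1. For all protein-coding genes with a pooled peak the share was 3.92%, and for all pooled peaks 3.9%. No ins gene and no member on X was among the 4, and neither were nlp-4 and ins-39. Of the 15 best-ranked members, 2, nlp-82 and flp-1, held TAATTA within 50 bp of the summit, beside the 3.92% of all protein-coding genes. A count this small does not set them apart from that share.

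The genes that process, release and receive these peptides were described from a separate list of 55 genes that matched the annotation. Of the 17 processing and release genes, 11 had a pooled peak (64.7%, interval 41.3 to 82.7, beside 53.3% of all protein-coding genes), with a median best rank of 3078, beside 12238 for all protein-coding genes. Within rank 3000 there were 4 of the 17 (23.5%, interval 9.56 to 47.3), beside the 7.95% above. The list was fixed by hand with earlier results of these data known. Its shares and median are therefore a description and no evidence of enrichment. The single reproducible peak of the list was at ida-1, a dense-core vesicle protein gene, at rank 269 (251 in replicate 1 and 306 in replicate 2), 245 bp upstream of the start. It lay nearer to the non-coding gene B0244.14 (137 bp).

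Among the other release genes, the Rab2 gene unc-108, whose product acts in dense-core vesicle maturation, had rank 771 (526 and 572 in the replicates). The gene cab-1 had rank 1302 (1255 and 2100). The CAPS gene unc-31, needed for dense-core vesicle release, had rank 1985 (6206 and 1898), at its start. The convertase gene egl-3 had rank 3808 (5834 in replicate 1 and 1783 in replicate 2). The carboxypeptidase E gene egl-21 had rank 3035 (11146 and 2051). The gene sbt-1, which encodes a convertase chaperone, had rank 3078 (2077 and 17430), 974 bp downstream in a coding exon. At egl-21 and sbt-1 the replicates stood far apart.

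Of the receptor genes, a pooled peak was near 18 of 29 (62.1%, interval 44 to 77.3, beside 53.3%), and their median best rank was 15599.5. None was within rank 3000, and the interval of that share reached 11.7%, which includes the 7.95% of all protein-coding genes. The insulin receptor gene daf-2 had rank 6708, 464 bp upstream of a start, with 8814 and 9119 in the replicates. Of the 10 insulin pathway genes, daf-2 included, 7 had a pooled peak (70%, interval 39.7 to 89.2, beside 53.3%). Among them were daf-16, the FOXO transcription factor gene, at rank 3450 (1006 in replicate 1 and 3719 in replicate 2), and the kinase gene sgk-1 at rank 3903 (7485 and 2716). The genes age-1, aap-1 and akt-1 had no peak in any list.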

How the data were processed

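The 2 biological replicates of anti-GFP ChIP-seq were analysed from peak lists on ce11, whose sequence is that of WBcel235. The authors' notes deposited beside the peak files state that peaks were called for each replicate and for the 2 combined, against 1 control alignment, and that an IDR threshold gave the reproducible list. Each deposited peak has a signal value (scale not stated) and a −log10 q-value, per the narrowPeak format; the aligner, caller, IDR threshold and depth: not given in the sources used here.

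Python 3.11.15 and SciPy 1.17.1 were used. A gene took the peak with the highest signal whose summit lay within 1000 bp of any annotated transcript start (Ensembl release 115, pseudogenes left out). Replicate peaks were ranked independently, and matched to a pooled summit within 200 bp where stated. The assignment was tested on simulated peaks. No enrichment test was run: the members and lists were chosen with earlier results of these data known, and shares are set beside all protein-coding genes. Named genes are those with a reproducible peak, the 15 best pooled ranks, clustered ins genes with a peak, the 4 singles, pairs sharing a peak, 3 genes on each side of the distance limit, and pathway genes that had a reproducible peak or a rank within 3000, of which 1 is not reported here. Outside this rule, genes were named after their values were seen, as were those without a peak. Of the pathway symbols, rab-2 did not match. Alternatives changed the distance, the starts, the point measured from, the list and the thresholds.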

Additional observations from a re-analysis of the deposited data

How the results depend on the processing

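Of 100 recomputed values, 72 stayed within 1.5 times, the interval or the replicate spread of the value reported, and 28 did not. The replicate spread, used for medians, widens as the replicates differ, and the replicate medians are themselves among the values. The ins medians of 19855 and 8301 both fell within it, so the 72 are no measure of stability. The number of genes with a reproducible peak (2) was 0 with a limit of 500 bp, 5 with 2000 bp (flp-24, ins-13 and ins-17 were added) and 1 with the nearest start only, and 2 among as many of the strongest peaks of either replicate as the reproducible list holds; over all protein-coding genes the share was 1.17% at 500 bp and 2.48% at 2000 bp. At 500 bp, 58 members had a pooled peak (40.3%, against 34.5% of all genes), with shares of 40.8% for nlp, 31.6% for ins, 38.9% on X and 40.7% on autosomes, 10 shared peaks, 22 upstream summits and an nlp median rank of 14423. At 2000 bp the shares were 80.6% for flp, 74.6% for nlp, 76.3% for ins and 76.9% on autosomes, with 57 shared peaks; over all members it was 76.4%, against 74.1% of all genes. With the 10000 highest-ranked peaks, 37 members and 17 pathway genes had a peak, and the shares were 19.4% for flp, 29.6% for nlp, 21.1% for ins, 22.2% on X and 26.9% on autosomes, against 22.6% of all genes. The wider or narrower limit and the shorter list change these counts by construction. Within rank 3000 of both replicates there were 4 members in place of 2, and TAATTA lay within 100 bp of 10 of the 88 summits. Neither count has a share over all genes beside it, so neither can be called high or low. A wider window raises the share over all genes too. For protein-coding genes with a pooled peak it was 3.92% in 101 bp, 5.79% in 151 bp and 11.9% in 299 bp. For members in the same windows it was 4.55%, 6.82% and 13.6%.

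With 1 replicate list in place of the pooled one, members with a peak ranged from 77 to 90, their median rank from 10997 to 14194, the family medians from 11812 to 15544.5 (flp), 8704 to 11659 (nlp) and 8301 to 19855 (ins), and the family shares from 54.8% to 58.1%, 59.2% to 71.8% and 39.5% to 50%. The shares on X ranged from 55.6% to 69.4% and on autosomes from 52.8% to 60.2%, shared peaks from 26 to 27, upstream summits from 32 to 42 and TAATTA from 4 to 5. Leaving out genes within 20 kb of ceh-63 gave 65.7% on X. No paired analysis was possible because both replicates belong to 1 group. Depth is unknown, so weak and absent sites cannot be separated.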

Other observations

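Runs of flp and nlp genes were looked at after the values had been seen, by the same spacing of at most 10000 bp between starts. On V, nlp-34, nlp-31, nlp-30, nlp-29, nlp-28 and nlp-27, of the epidermal antimicrobial type, lay within 10244 bp. A pooled peak was near 5 of these 6 genes, with 4 separate peaks: the one shared by nlp-31 and nlp-34, then nlp-29 (rank 9204), nlp-28 (rank 10802) and nlp-27 (rank 16813). Replicate 1 had peaks near 5 of the 6 and replicate 2 near 6. On X, nlp-45, nlp-22, nlp-23 and nlp-2 lay within 6456 bp, and all 4 had a pooled peak, as in each replicate. Near nlp-25 and nlp-26, 7281 bp apart on V, 1 of the 2 had a pooled peak, with 1 in replicate 1 and both in replicate 2. In contrast, none of flp-28, flp-3 and flp-2, within 7279 bp on X, had a pooled peak, and replicate 2 alone had a peak near 1 of them. These 4 runs are all those found, and the share of all protein-coding genes with a pooled peak was 53.3%.

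Some genes ranked high in 1 replicate only. The insulin-like gene ins-18, known to oppose DAF-2, had rank 2029 in replicate 2, no peak in replicate 1 and rank 14060 in the pooled list. For nlp-24 the rank was 2121 in replicate 1, with no peak in replicate 2 or in the pooled list. For flp-12 the best ranks were 2124 and 29761 in replicates 1 and 2. Their causes were not tested.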
